A study of Mus musculus with 12 samples.

Results

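The mesothelial markers are 7 genes that mark the thin sheet of cells covering the pancreas and the other organs of the abdominal cavity. They were taken by name, as Msln, Upk1b, Upk3b, Lrrn4, Wt1, Rspo1 and Tbx18, and each had 1 row on the array among 30142 genes with a single symbol. Expression was measured in whole pancreas of mice aged 6 months on Affymetrix arrays, with 1 array per sample. Controls were 6 samples labelled normal pancreas, with the genotype Pdx1/Cre, and the HuR group was 6 samples labelled experimental pancreas, with the genotype Pdx1/Cre + Traffic-HuR. Both groups therefore carried a Cre recombinase driven by the promoter of Pdx1, a gene of the pancreatic epithelium, and the HuR group also carried a transgene for the RNA-binding protein HuR (Elavl1). No label states that the arrays came from different animals, so the p-values measure the spread between these samples, which may be technical in part.

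Mesothelium is a flat epithelium of mesodermal origin that secretes a lubricating surface layer and can give rise to fibroblast-like cells after injury. Mesothelin (Msln) is a surface glycoprotein that binds the mucin Muc16, the uroplakins Upk1b and Upk3b are membrane proteins shared with the lining of the bladder, and Lrrn4 is a membrane protein with leucine-rich repeats. Rspo1 is a secreted amplifier of Wnt signalling, and Wt1 and Tbx18 are transcription factors of the developing mesothelium that are also found in other mesenchymal cells. In whole tissue, fewer cells of a type and less RNA per cell cannot be told apart.

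Of the members, 4 had a promoter in the RefSeq table of build GRCm38.p6, which gives 250 bases before and 50 bases after the transcription start. All 4 are shown. Upk3b (chr5:136038246-136038545, + strand), Lrrn4 (chr2:132880813-132881112, - strand) and Rspo1 (chr4:124986180-124986479, + strand) were the 3 members that varied most closely together in the arrays. The values of Tbx18 (chr9:87731211-87731510, - strand) followed another pattern. Capitals mark the letters CATTCC or their reverse complement GGAATG, which are the core recognised by TEAD factors.
Upk3b: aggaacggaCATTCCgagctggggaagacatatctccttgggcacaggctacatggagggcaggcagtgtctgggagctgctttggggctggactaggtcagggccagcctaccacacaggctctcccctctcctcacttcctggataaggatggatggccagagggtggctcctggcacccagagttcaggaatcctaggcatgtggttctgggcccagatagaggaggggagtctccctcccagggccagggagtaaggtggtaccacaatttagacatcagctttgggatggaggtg
Lrrn4: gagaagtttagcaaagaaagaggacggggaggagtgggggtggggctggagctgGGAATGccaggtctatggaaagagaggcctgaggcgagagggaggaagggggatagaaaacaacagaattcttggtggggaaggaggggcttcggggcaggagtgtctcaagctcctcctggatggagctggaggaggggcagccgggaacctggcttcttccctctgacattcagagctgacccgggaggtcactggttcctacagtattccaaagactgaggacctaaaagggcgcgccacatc
Rspo1: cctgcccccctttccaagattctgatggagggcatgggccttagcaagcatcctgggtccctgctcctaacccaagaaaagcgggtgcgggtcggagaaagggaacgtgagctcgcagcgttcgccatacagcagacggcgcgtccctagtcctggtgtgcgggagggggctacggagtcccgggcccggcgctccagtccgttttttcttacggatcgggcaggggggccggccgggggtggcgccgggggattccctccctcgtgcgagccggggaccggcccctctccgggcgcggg
Tbx18: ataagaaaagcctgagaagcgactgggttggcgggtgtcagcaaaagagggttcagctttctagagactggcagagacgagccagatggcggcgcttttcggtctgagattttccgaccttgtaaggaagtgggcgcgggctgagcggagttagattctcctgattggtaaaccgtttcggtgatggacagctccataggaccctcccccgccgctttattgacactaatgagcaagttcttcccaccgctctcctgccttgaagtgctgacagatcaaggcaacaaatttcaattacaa

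The promoters of Upk3b and Lrrn4 each held CATTCC once in either orientation, starting at -241 and -196 from the transcription start, and those of Rspo1 and Tbx18 did not hold it. Of 27025 promoters of the same length, 1 per gene, 14.6% held these letters. Neither the GC box GGGCGG, the TATA letters TATAAA nor GTGGGAG, which lies within a described WT1 motif, was found on either strand of the 4 windows, against 35.9%, 14.2% and 9.45% of all promoters. The Rspo1 window had 29 CpG dinucleotides and a GC content of 69.0%, whereas that of Upk3b had 2 CpG and 58.7%, that of Lrrn4 7 and 58.0%, and that of Tbx18 15 and 51.7%. The medians over all promoters were 7 CpG and 52.7%. A match of letters describes the sequence and is not a binding site.

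The arrays had similar overall levels, with medians from 4.42 to 4.60 on the log2 scale of the deposited values, and array-to-array correlations from 0.971 to 0.996 over genes. Control replicate 2 and HuR replicate 2 stood apart from the rest in several cell type markers, and results that rest on them are given with and without them. Xist, the RNA of the inactive X chromosome, was above 10 in 2 of 6 control and 3 of 6 HuR arrays, so the arrays were of mixed sex. These were control replicates 4 and 5 and HuR replicates 1, 2 and 4. Elavl1 was 5.99 ± 0.12 (SD, n = 6) in controls and 6.23 ± 0.14 (SD, n = 6) in HuR samples, with an exact permutation p of 0.0108 and a limma adjusted p of 0.878, and HuR replicate 5, at 6.05, lay within the control range. The acinar enzyme genes Cpa1, Cela1, Prss2 and Cel were at the highest value of the scale, 19.93, on all 12 arrays.

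The comparison addressed how expression differed between pancreas with and without the HuR transgene. All 7 mesothelial markers had a lower mean in the HuR samples, by 0.14 to 0.99 on the log2 scale, where 52.1% of all genes were lower. The median of their differences was -0.47, and that over all genes was -0.003. The 6 markers other than Tbx18 varied together over the arrays, with r from 0.758 to 0.983 between pairs. Their shared direction is therefore not that of 6 independent genes. Upk3b, Upk1b and Lrrn4 differed by the most, at 1.99-fold, 1.86-fold and 1.67-fold lower. These differences lay within the spread between arrays for 6 of the 7 genes, and the groups did not overlap for Tbx18 alone. Limma called 0 of the 7 at an adjusted p under 0.05, where it called 0% of all genes, and 1 of the 7, Tbx18, at an unadjusted p under 0.05, where 2.63% of all genes were lower and 2.87% higher at that threshold. Over all genes, 1657 had an unadjusted p under 0.05, 864 of them higher and 793 lower.

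**Figure D1:**
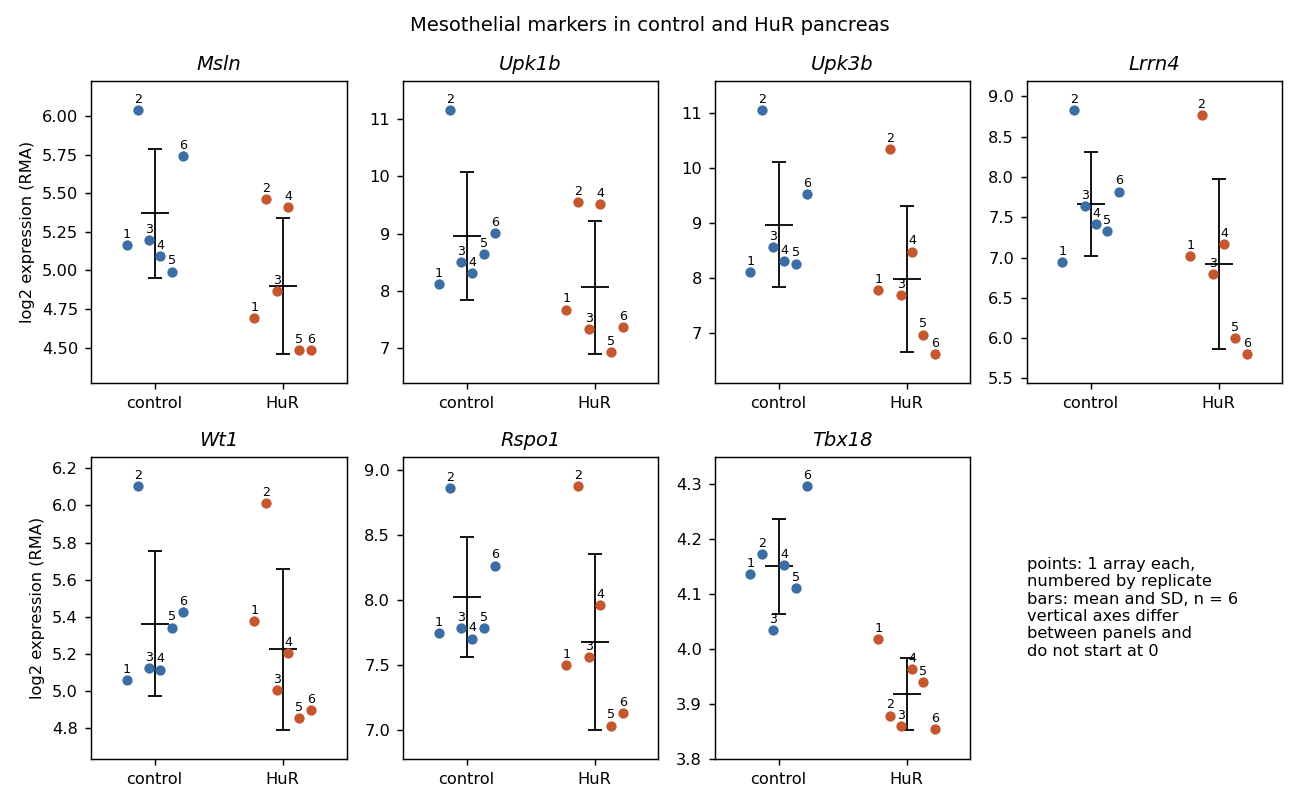
Log2 expression of each mesothelial marker on 6 control and 6 HuR arrays, with points numbered by replicate and bars for the mean and SD. Replicate 2 is high in both groups for 6 genes, HuR replicates 3, 5 and 6 lie below every control for all 7, and the groups do not overlap for Tbx18.

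Among the surface proteins, Upk3b ranged in controls from 8.11 through a median of 8.43 to 11.05, and in HuR samples from 6.62 through 7.73 to 10.35. Control replicate 2 and HuR replicate 2 were the highest arrays, and 4 HuR arrays lay below every control. Its mean was 8.97 ± 1.14 (SD, n = 6) in controls and 7.98 ± 1.33 (SD, n = 6) in HuR samples, a difference of -0.99 (SE 0.66, 95% interval from -2.43 to 0.45). The limma adjusted p was 0.92 and the exact two-sided permutation p was 0.201. The difference was -0.57 without control replicate 2, -1.46 without HuR replicate 2 and -1.05 (SE 0.38) without both. Its size thus moved when 1 of these arrays was left out, and was close to that of all arrays without both. Without HuR replicate 5 or 6 it was -0.79 or -0.72.

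Upk1b, the tetraspanin partner of uroplakins in the bladder, ranged in controls from 8.11 through 8.57 to 11.15 and in HuR samples from 6.93 through 7.52 to 9.55. HuR replicates 2 and 4, at 9.55 and 9.52, lay above 5 of the 6 controls, and the other 4 HuR arrays lay below them all. The difference of -0.89 (SE 0.61, 95% interval from -2.22 to 0.44) had a limma adjusted p of 0.921 and an exact permutation p of 0.214. It was -0.45 without control replicate 2, -1.19 without HuR replicate 2 and -0.75 without both.

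Msln ranged from 4.99 through 5.18 to 6.04 in controls and from 4.48 through 4.78 to 5.46 in HuR samples. As for the uroplakins, HuR replicates 1, 3, 5 and 6 were below every control, while HuR replicates 2 and 4 lay within their range. The difference was -0.47 (SE 0.23, 95% interval from -0.97 to 0.03), with a limma adjusted p of 0.905 and an exact permutation p of 0.0909. For Msln it was -0.34 without control replicate 2, -0.58 without HuR replicate 2 and -0.45 without both. Lrrn4 ranged from 6.95 through 7.52 to 8.83 in controls and from 5.80 through 6.90 to 8.77 in HuR samples. HuR replicates 5 and 6 were lowest, at 6.00 and 5.80, and HuR replicate 2 nearly reached the highest control. The difference was -0.74 (SE 0.47), with a limma adjusted p of 0.911 and an exact permutation p of 0.173. It was -0.51 without control replicate 2, -1.11 without HuR replicate 2 and -0.87 without both.

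The secreted factor Rspo1 ranged from 7.70 through 7.78 to 8.86 in controls and from 7.03 through 7.53 to 8.88 in HuR samples. Its lowest 4 arrays were HuR samples, yet its highest array was HuR replicate 2. The difference was -0.35 (SE 0.31), with a limma adjusted p of 0.942 and an exact permutation p of 0.316. It was -0.18 without control replicate 2, -0.59 without HuR replicate 2 and -0.42 without both. The other measured genes of R-spondin and Wnt signalling gave no call, with 0 of 16 listed genes, Rspo1 included, at an unadjusted p under 0.05 and differences from -0.35 to 0.14. Porcn, the enzyme that lipidates Wnt proteins, had the smallest p of them at -0.12 (SE 0.059), Rspo4 differed by -0.08 (SE 0.054), and the Wnt coreceptor gene Lrp6 by 0.04 (SE 0.12). The median over the list was -0.01.

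Wt1 ranged from 5.06 through 5.23 to 6.10 in controls and from 4.85 through 5.11 to 6.01 in HuR samples. HuR replicates 3, 5 and 6 were below every control, and the rest overlapped. The difference of -0.14 (SE 0.22) had a limma adjusted p of 0.974 and an exact permutation p of 0.543, and it turned to 0.01 without control replicate 2. It was -0.29 without HuR replicate 2 and -0.15 (SE 0.11) without both. Of 23 alternatives, leaving out control replicate 2 alone was the only one that turned the direction of Wt1.

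Tbx18, a T-box transcription factor, followed another pattern than the other 6 markers. It ranged from 4.03 through 4.14 to 4.30 in controls and from 3.85 through 3.91 to 4.02 in HuR samples. All 6 HuR arrays were below every control, as in 0.133% of all genes. The difference was -0.23 (SE 0.049, 95% interval from -0.34 to -0.13), or 1.17-fold lower. The exact permutation test gave 0.00216, its minimum with 6 arrays per group, while limma with adjustment over all genes gave 0.778. Its values lay below the median row level of 4.52 and close to the background rows of the array, whose median per array ran from 3.66 to 3.83 in controls and from 3.64 to 3.79 in HuR samples. The background medians differed by -0.01 between the groups, and the difference of Tbx18 was -0.20 to -0.26 over all alternatives in which it was tested. Tbx18 was the only member below the median row level.

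**Figure D2:**
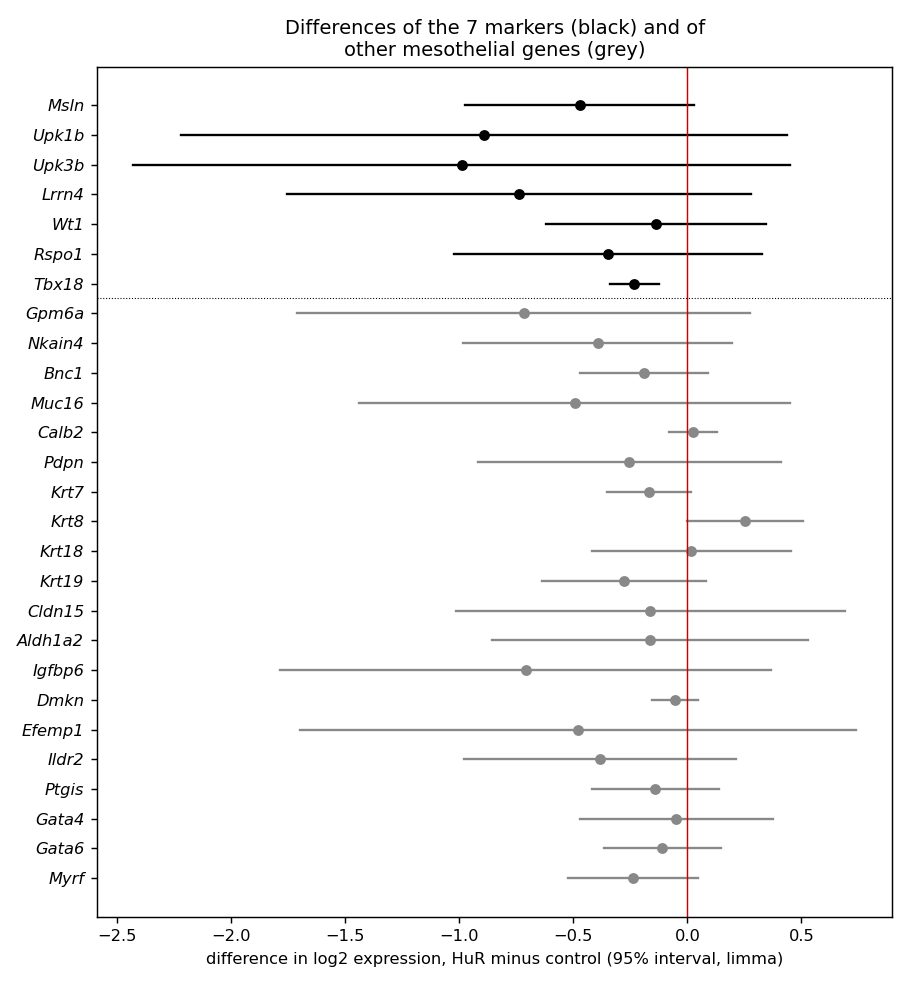
Difference in log2 expression between HuR and control pancreas with its 95% limma interval for the 7 markers (black) and 20 other mesothelial genes (grey). The interval of Tbx18 alone among the markers lies below 0, from -0.34 to -0.13, and the widest is that of Upk3b, from -2.43 to 0.45.

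Other T-box genes did not share this difference at that threshold. Of the 9 measured T-box genes Tbx18 alone had an unadjusted p under 0.05, and the next 2 in order of p, Tbx3 and Tbx4, differed by -0.07 (SE 0.058) and -0.06 (SE 0.052). Of the same 9, Tbx18 included, 8 had a lower mean and 1 a higher, with a median difference of -0.035, where 52.1% of all genes were lower. Tbx18 is also expressed by pericytes and smooth muscle cells, so 14 markers of these mural cells were compared. Their differences ran from -0.08 to 0.25 with a median of 0.04, 10 were higher and 4 lower, and limma called 0 at an adjusted p under 0.05. The proteoglycan gene Cspg4, at 4.06 ± 0.06 (SD, n = 6) in controls and 3.98 ± 0.02 (SD, n = 6) in HuR samples, was the 1 mural marker with an unadjusted p under 0.05. As for Tbx18, all 6 of its HuR arrays were below every control (exact permutation p = 0.00216) and its values lay near background. Rgs5, the brightest mural marker, differed by 0.25 (SE 0.24).

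Other mesothelial genes showed the direction of the markers without a call. Of 20 measured genes, 17 were lower and 3 higher in HuR samples, where 52.1% of all genes were lower, and the median difference was -0.18. At an unadjusted limma p under 0.05 were 0 of them, where 2.63% of all genes were lower and 2.87% higher. Most of the 20 varied with Upk3b (median r = 0.869), so their direction is not independent of that of the markers. Gpm6a, a membrane glycoprotein, and Igfbp6, a binding protein of insulin-like growth factors, differed by -0.72 (SE 0.46) and -0.71 (SE 0.49), and Muc16, the partner of mesothelin, by -0.49 (SE 0.43). By the smallest p they were led by the keratin genes Krt8, with a difference of 0.25 (SE 0.12), and Krt7, with -0.17 (SE 0.084). Krt19, a keratin of ducts and mesothelium, differed by -0.28 (SE 0.17). The brightest gene, Efemp1, which encodes a matrix glycoprotein, ranged from 10.91 to 13.38 in controls and from 10.08 to 13.13 in HuR samples. It differed by -0.48 (SE 0.56).

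The uroplakins that belong to the bladder rather than to mesothelium stayed low throughout. Upk1a, Upk2 and Upk3a lay between 4.21 and 4.82 on all arrays, and none had an unadjusted p under 0.05. Upk3bl, a neighbour in name of Upk3b, lay between 4.61 and 4.88 and differed by -0.01 (SE 0.057). The variation of Upk3b and Upk1b, over 4.43 and 4.23 log2 units, was not seen in them.

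The 6 markers other than Tbx18 differed little from each other in their order over the arrays. Control replicate 2 was the highest array for Msln, Upk1b, Upk3b, Lrrn4 and Wt1, and HuR replicate 2 for Rspo1. In HuR replicates 3, 5 and 6, all 7 markers lay below every control, against 5 markers in HuR replicate 1 and only Tbx18 in HuR replicates 2 and 4. Their within-group SD was 0.41 for Wt1 and 0.43 for Msln, 0.58 for Rspo1, 0.87 for Lrrn4, 1.14 for Upk1b and 1.24 for Upk3b. That of Upk3b exceeded 99.5% of genes and that of Wt1 94.9%, while the SD of Tbx18, at 0.077, exceeded 15.1%. The median over all genes was 0.14.

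Over the 12 arrays, the 15 pairs of these 6 genes had Pearson correlations from 0.758 to 0.983 and Spearman correlations from 0.769 to 0.972. All 15 passed after Benjamini-Hochberg adjustment over the 21 pairs of members, with adjusted permutation p-values from 7e-05 to 0.00521 for Pearson's r and from 0.000126 to 0.00696 for Spearman's rho. The smallest raw p was 1e-05, the smallest that 100000 resamples can give. Without the 2 arrays farthest from the median, the correlations were 0.53 to 0.97. Within the controls they were 0.854 to 0.993 and within the HuR samples 0.735 to 0.99. Upk3b and Rspo1 were the closest pair (r = 0.983, and 0.97 without the 2 farthest arrays, which were control replicate 2 and HuR replicate 2), and Msln and Wt1 the least close (r = 0.758, and 0.53 without control replicate 2 and HuR replicate 5).

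Tbx18 correlated with the other 6 less, at r from 0.26 to 0.584 and rho from 0.441 to 0.615. None of these Pearson correlations passed, with adjusted permutation p-values from 0.0619 to 0.41, and 1 of the 6 Spearman correlations did, that with Lrrn4 (rho = 0.615, adjusted permutation p = 0.0486). Without the 2 arrays farthest from the median of the other gene, r ran from 0.251 to 0.804. Without control replicate 2 and HuR replicate 2 in every pair, it ran from 0.571 to 0.804. Within the controls it ran from 0.268 to 0.59 and within the HuR samples from -0.11 to 0.0798, so the pooled values did not hold within the HuR group.

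**Figure D3:**
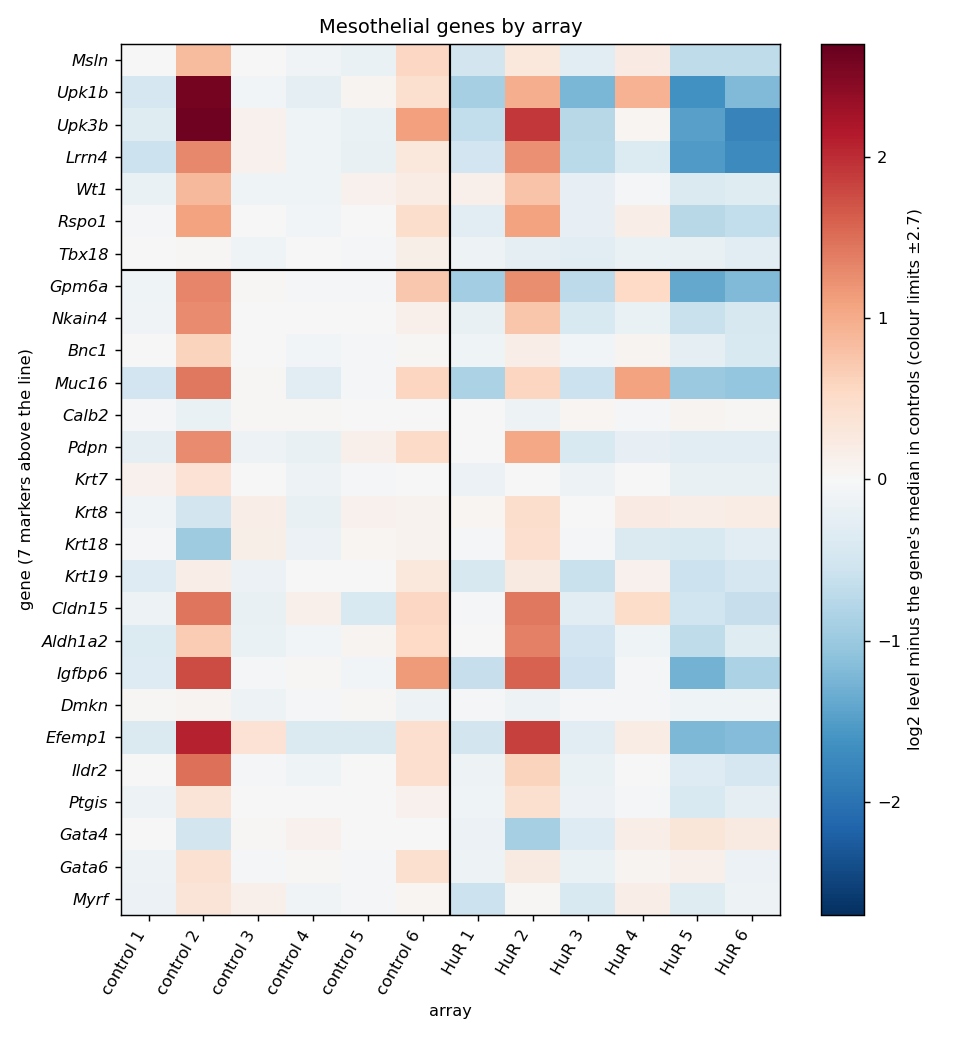
Log2 level of the 7 markers (above the line) and of 20 other mesothelial genes on each array, minus the gene's median in controls. Control replicate 2, HuR replicate 2 and, to a smaller extent, control replicate 6 are high across most genes, and HuR replicates 5 and 6 are low. Calb2, Dmkn, Krt8, Krt18 and Gata4 do not follow.

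The other mesothelial genes followed the same order of arrays. Correlated with Upk3b over 12 arrays, 15 of the 20 passed in the positive direction by permutation of Pearson's r after adjustment over 133 listed genes, with a median r of 0.869 over the list, or 0.798 without control replicate 2 and HuR replicate 2. In 9 of the 20, r was at least 0.9, against 0.706% of 12329 named genes above the median row level. Igfbp6 (r = 0.975, rho = 0.965), Efemp1 (r = 0.969, rho = 0.916), Nkain4, a partner of the sodium pump (r = 0.952, rho = 0.923), Gpm6a (r = 0.95, rho = 0.972) and Ptgis, the prostacyclin synthase gene (r = 0.949, rho = 0.923) had adjusted permutation p-values of 0.000222 to 0.000443 for r. Muc16 had r = 0.871 and rho = 0.944.

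Several listed genes did not follow. Calb2, which encodes calretinin, a classical marker of human mesothelium, lay between 3.71 and 3.95 on all arrays, near background, and had r = -0.854 with Upk3b. Its r was -0.499 without control replicate 2 and HuR replicate 2, and its rho of -0.685 did not pass (adjusted permutation p = 0.0771). The keratin genes Krt8 (r = -0.267) and Krt18 (r = -0.0437), which acinar and duct cells also express, and Dmkn (r = 0.193) did not pass. Without control replicate 2 and HuR replicate 2, r was 0.608 for Krt18, -0.197 for Krt8 and 0.0329 for Dmkn, so the low pooled value of Krt18 rested on these arrays. Gata4, a transcription factor also of acinar cells, was negative at r = -0.713 with an adjusted permutation p of 0.0399, and at -0.256 without control replicate 2 and HuR replicate 2. Its rho of -0.469 did not pass (adjusted permutation p = 0.347). The relations of Calb2 and Gata4 were thus weaker without these 2 arrays.

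Searched over 12330 named genes above the median row level, the genes most like each marker by Pearson's r over 12 arrays were in part the markers themselves. Those nearest to Upk3b were Adgrd1, an adhesion G protein-coupled receptor gene (r = 0.983), Rspo1 (r = 0.983) and Igfbp6 (r = 0.975). Lrrn4 was nearest to Upk3b (r = 0.974), Ptgis (r = 0.966) and Adgrd1 (r = 0.965), and Rspo1 to Fhl1 (r = 0.985), Gfpt2 (r = 0.983) and Upk3b. Msln was nearest to Gpm6a (r = 0.951), Cyp2s1 (r = 0.936) and Upk3b (r = 0.933). Adgrd1 ranged from 7.75 to 10.92 in controls and from 6.88 to 10.24 in HuR samples.

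Upk1b had different neighbours, namely Ppl, which encodes periplakin of epithelial junctions (r = 0.975), Fam180a (r = 0.963) and Ezr, the membrane to cytoskeleton linker ezrin (r = 0.959). Wt1 was nearest to Syne1 (r = 0.978), Cd55, a complement inhibitor (r = 0.976), and Osr1, a transcription factor of mesoderm (r = 0.975). Osr1 ranged from 7.52 to 9.98 in controls and from 6.94 to 10.41 in HuR samples, with the highest value in HuR replicate 2. The nearest genes to Tbx18 were Ptprd (r = 0.89), Glp1r (r = 0.844) and Lrrc8d (r = 0.835). Within the HuR samples these r values were 0.741, -0.317 and 0.277, so the pooled r of Glp1r and Lrrc8d with Tbx18 did not hold within that group. All 3 genes, like Tbx18, were lower on every HuR array than on every control, as in 0.133% of all genes. They were picked for their likeness to Tbx18, whose groups did not overlap, so their separation is not independent of that choice. The genes nearest to each marker were the closest of many, which makes their r high by choice, and they were given no p.

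Markers of other cells in the tissue moved with the mesothelial markers on some arrays. Fibroblast markers were the closest list, at a median r with Upk3b of 0.821 over all arrays. It was 0.614 without control replicate 2 and HuR replicate 2, 0.924 within the controls and 0.856 within the HuR samples. By Pearson's r, 10 of 11 genes correlated positively with Upk3b after adjustment. By rho, Col1a1, Col1a2, Col3a1 and Dpt of these did not pass (adjusted permutation p from 0.0909 to 0.288). In 9 of 11, r was at least 0.7, against 7.18% of 12329 named genes above the median row level. Dpp4, a peptidase of adventitial fibroblasts and mesothelium (r = 0.947), and Cd34 (r = 0.924) were closest. The list mean ran from 8.69 to 10.01 in controls and from 8.64 to 10.83 in HuR samples, with all 11 genes above the median row level, and 3 genes were higher and 8 lower. Of these, Pi16, of adventitial fibroblasts, and the collagen-binding proteoglycan gene Lum had the smallest p, at -0.25 (SE 0.14) and 0.49 (SE 0.51), and Dcn, the brightest, differed by 0.09 (SE 0.33). With the mean of the fibroblast list as a covariate, an alternative chosen after seeing the data, Upk3b differed by -0.88 (SE 0.32) and Lrrn4 by -0.66 (SE 0.21). Adjusted over all genes, the limma p-values were 0.422 and 0.319 there.

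Vim, the intermediate filament of mesenchymal and mesothelial cells and the brightest gene of a list for mesenchymal transition, ranged from 10.11 to 13.39 in controls and from 10.16 to 13.67 in HuR samples, and differed by 0.06 (SE 0.66). Of the 9 measured genes of that list 0 had an unadjusted p under 0.05. Cdh1, the epithelial cadherin, differed by -0.22 (SE 0.14) and Snai2, a repressor of it, by 0.16 (SE 0.14). Their median difference was 0.00.

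Adipocyte and macrophage markers mostly had higher means in HuR samples, and limma called 0 of 11 and 0 of 10 at an adjusted p under 0.05, with a smallest adjusted p of 0.878 in each list. All 11 measured adipocyte genes had a higher mean, where 52.1% of all genes had a lower one. Their list mean ran from 6.62 to 8.90 in controls and from 7.33 to 10.25 in HuR samples. Of 10 macrophage genes 9 were higher, and their list mean ran from 6.90 to 8.80 and from 7.50 to 10.04. Every gene of both lists lay above the median row level. Against Upk3b, 0 of 11 adipocyte and 2 of 10 macrophage genes passed by Pearson's r after adjustment. The 2 were Csf1r and Timd4, which did not pass by rho (adjusted permutation p = 0.0771 and 0.243). Over all arrays the median r of the adipocyte and macrophage lists was 0.397 and 0.501. Without control replicate 2 and HuR replicate 2 it was -0.607 and -0.219. Within the controls it was 0.767 and 0.929, and within the HuR samples 0.757 and 0.78, with replicate 2 included in each. At an unadjusted limma p under 0.05 were the adipocyte genes Car3, a carbonic anhydrase (2.64, SE 1.02), and Retn, the hormone resistin (2.11, SE 0.93), and the macrophage genes Mpeg1 (1.29, SE 0.31) and Ctss, a lysosomal protease (1.71, SE 0.55). On HuR replicate 2 all of these were at their highest together with high mesothelial markers, whereas on HuR replicate 1 the adipocyte mean was 8.62 and the mean of the 6 mesothelial markers 6.67. HuR replicates 5 and 6 had adipocyte means of 7.98 and 8.18 and the lowest mesothelial means, both 6.05. Fitted beside the adipocyte mean, the differences of 6 markers were larger and that of Tbx18 nearly equal, at -0.22, and all 7 had an unadjusted limma p under 0.05, where 3.31% of all genes were lower and 2.87% higher at that threshold in this fit (998 and 865 of 30142). Upk3b differed there by -1.99 (SE 0.55), Upk1b by -1.64 (SE 0.60), Lrrn4 by -1.47 (SE 0.38), Rspo1 by -0.80 (SE 0.27), Msln by -0.69 (SE 0.25) and Wt1 by -0.52 (SE 0.15). None passed after adjustment over all genes, with limma adjusted p-values from 0.73 to 0.767. The adipocyte mean itself differed between the groups by 1.05. The part of the other cell types in the mesothelial differences was not tested.

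**Figure D4:**
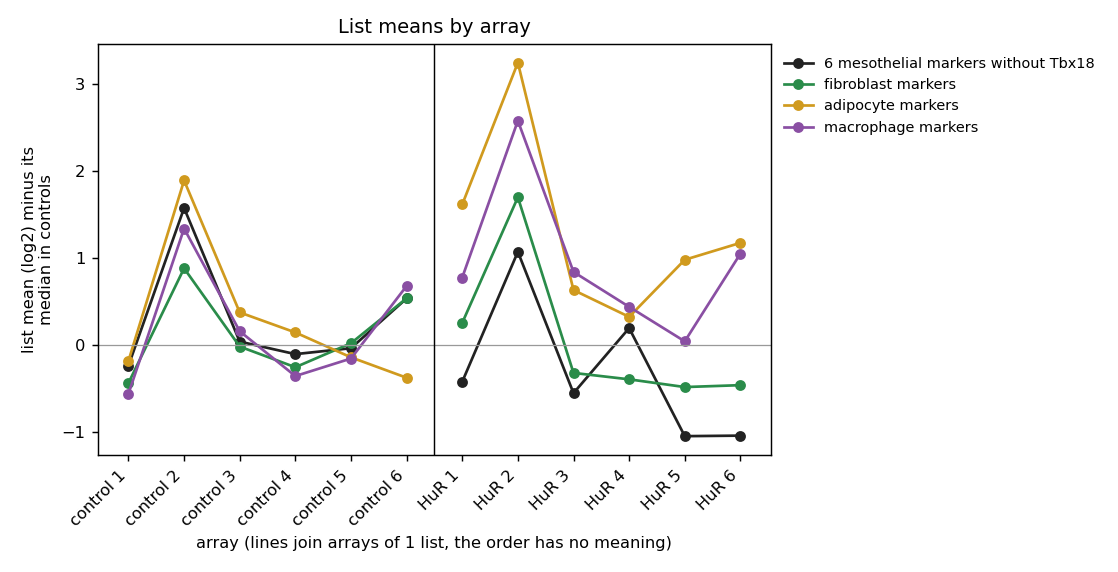
Mean log2 level of 6 mesothelial markers (without Tbx18) and of the fibroblast, adipocyte and macrophage lists on each array, minus the list's median in controls. The 4 lists are high together on control replicate 2 and HuR replicate 2, and on HuR replicates 5 and 6 the adipocyte mean is above and the mesothelial mean below the control median.

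By median r, the remaining lists followed Upk3b less than the fibroblast list did. All 9 measured islet markers had a lower mean in HuR samples, with 0 at an unadjusted limma p under 0.05 and G6pc2, a beta cell gene, at -1.79 (SE 0.98). After adjustment 2 of 9 correlated with Upk3b. They were Sst (r = 0.886, or 0.662 without control replicate 2 and HuR replicate 2) and Gcg (r = 0.718, or 0.431 without them). The median r of the islet list was 0.572 over all arrays and 0.0524 without these 2 arrays. Within the controls it was 0.709 and within the HuR samples 0.381. Of the 7 measured B cell and lymph node markers 0 passed against Upk3b. Their median r was 0.369, or -0.419 without control replicate 2 and HuR replicate 2, 0.856 within the controls and 0.0817 within the HuR samples. Among the duct markers, Krt19 (r = 0.831, or 0.845 without the same 2 arrays), which is also listed for mesothelium, passed in the positive direction and Sox9 (r = -0.726, or -0.49 without them) in the negative by Pearson's r, while the rho of Sox9, -0.636, did not pass (adjusted permutation p = 0.122). Epcam, an epithelial adhesion gene, differed by 0.34 (SE 0.11) and was the 1 duct marker of 7 at an unadjusted limma p under 0.05. Of 8 acinar markers, 4 were at the highest value of the scale and Bhlha15, a transcription factor of secretory cells, was the 1 at that threshold, at -0.64 (SE 0.26). Liver and intestine markers lay below the median row level in 5 of 6 genes. The exception was the albumin gene Alb, which differed by 0.60 (SE 0.30), with 4 HuR arrays above every control and an unadjusted limma p of 0.0704. In this list 0 of 6 genes passed against Upk3b.

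**Figure D5:**
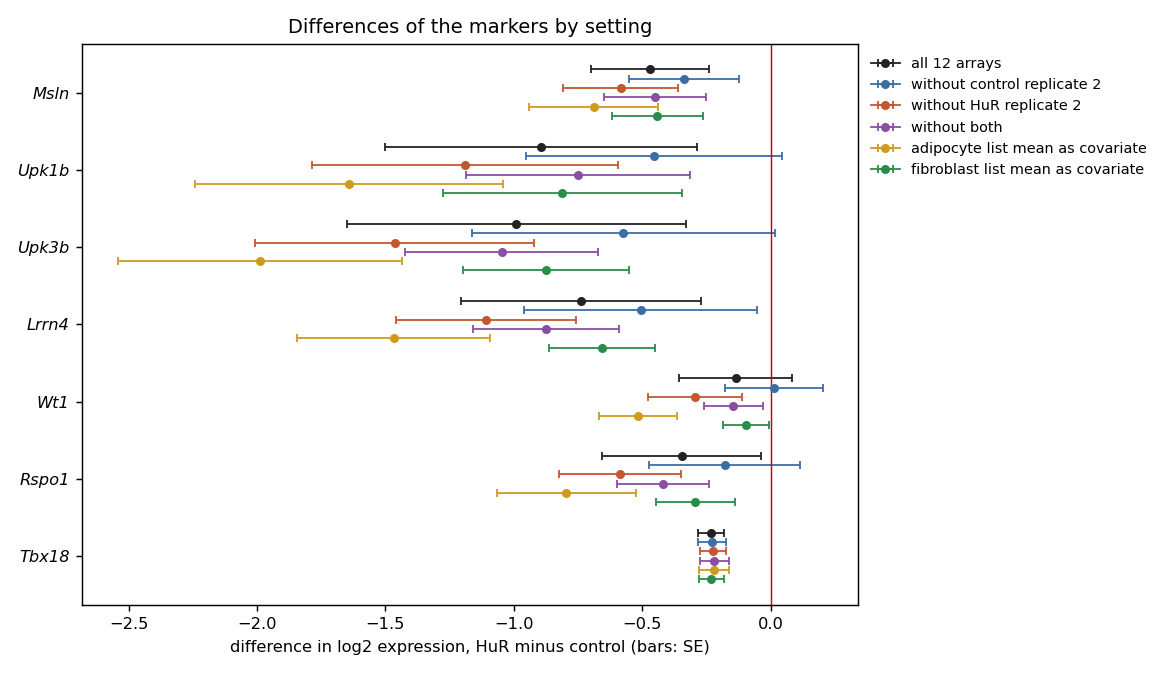
Difference in log2 expression between HuR and control pancreas for each marker with all 12 arrays, without control replicate 2, without HuR replicate 2, without both, and with the adipocyte or the fibroblast list mean as a covariate; bars are the SE. Upk3b runs from -1.99 to -0.57, Wt1 lies at 0.01 without control replicate 2, and Tbx18 stays near -0.23.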

How the data were processed

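RNA of 12 pancreas samples was hybridised to 1 Affymetrix array each, and samples were grouped by their titles and genotypes. The deposited values are log2 expression values that the authors made with RMA (background correction, normalization between arrays and a summary of probes), per the labels. Expression Console 1.4 and Transcriptome Analysis Console 3.1 appear in the submitters' processing notes. Their settings and the genome build were not stated in what was used here. Of 72688 rows, 6732 control rows were left out. Of the other 65956, 30604 had 1 gene symbol, 2146 had several and 33206 had none in the platform annotation, with symbols updated through RefSeq (GRCm38.p6). For each of 30142 genes the row with the highest mean was taken.

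The members and the 15 gene lists were chosen with earlier results of these data known. Differences were fitted on all rows with limma 3.58.1 in R 4.3.3, two-sided, with Benjamini-Hochberg adjustment over genes and a threshold of 0.05. Exact permutation tests used all 924 assignments of arrays. Correlations used 100000 permutations in numpy 2.4.6. The fit was tested on simulated data. Figures used matplotlib 3.10.9 and Python 3.11.15. Chosen for naming were all members, Elavl1, for each list the 2 genes with the smallest p and the brightest, and for each member the 3 genes of highest r, leaving out predicted genes, small RNAs and immunoglobulin segments. Some of the list genes so chosen are not printed. Other genes were named after their values were seen. A list gene without a row of a single symbol was not analysed here. The number of arrays limits the precision. Alternatives changed the normalization, the filter, the row of a gene, the variance model, array weights, covariates, the replicate block and the arrays included.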

Additional observations from a re-analysis of the deposited data

Results flagged for a closer look

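Values of the 7 markers were set against the rest of their group by Dixon's ratio, the gap of the extreme array to its neighbour divided by the range, in 14 groups of 6 arrays. In 2 groups the ratio was above its 95% critical value, and chance alone gives about 1 in 20. Upk1b on control replicate 2 was 11.15, with the next control at 9.011 (ratio 0.705). Wt1 on control replicate 2 was 6.104, with the next control at 5.425 (ratio 0.651). The same array was the highest of all 12 for Msln, Upk3b and Lrrn4 as well, where the ratio was not above the critical value, and it was high in fibroblast, adipocyte and macrophage markers. Its part in the differences is given by the values without it.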

How the results depend on the processing

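Limma called 0 genes at an adjusted p under 0.05 under 22 of 23 alternatives, and 1 with the fibroblast list mean as a covariate, which was added after seeing the data; this gene was Jchain, at 1.82 (SE 0.18). At an unadjusted p under 0.05 that fit gave 2796 genes, against 1657 as reported. The median difference of the 7 markers was -0.80 to -0.34 over all alternatives and -0.59 to -0.34 with single arrays left out. The number of markers lower at an unadjusted p under 0.05, which was 1, became 4 with a replicate block, 3 with array weights, 7 with the adipocyte mean as a covariate, 4 with the fibroblast mean and 5 without both control replicate 2 and HuR replicate 2. Over all genes, the numbers lower at that threshold were 793 as reported and, in the same order of settings, 997, 901, 998, 1120 and 949. Among the markers it was 0 of 6 over rows above the median level, where Tbx18 was not tested. With single arrays left out it was 1 to 5, at 2 without control replicate 5 or HuR replicate 4 and 5 without HuR replicate 2. Wt1 was -0.29 to 0.012 with single arrays left out, and turned to 0.012 without control replicate 2. The other 6 markers kept a lower mean in every alternative that tested them, and no marker was called in any. The causes were not tested, apart from the smaller set of genes above the median level. Same-numbered arrays of the 2 groups had correlations of their deviations from -0.08 to 0.64, and 1 of 6 pairs matched best with its own number, so the numbers were not taken to pair the samples. For Tbx18 and Cspg4, the nearness to background limits what the arrays can show.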
